A study of Sordaria macrospora with 8 samples.

Results

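H3K56ac peaks near the chromosome ends of the filamentous fungus Sordaria macrospora were compared between the wild type and a strain without asf1 (Δasf1). H3K56ac is histone H3 acetylated at lysine 56. A peak was counted as a member when its centre lay within 100 kb of position 1 of a chromosome or of the last position under any peak of that chromosome. The 7 chromosomes have 14 such ends. The wild-type list placed 203 of its 7430 peaks there and the Δasf1 list 230 of its 7117, in all 433 of 14547 peaks. The right end of chromosome 2 carries the ribosomal RNA repeats, and its peaks above position 6300000 (4 wild-type, 10 Δasf1) were kept apart. The 13 other ends held 197 wild-type and 218 Δasf1 peaks, and each list had 2 more peaks at the right end of chromosome 2 below position 6300000.

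Chromatin immunoprecipitation followed by sequencing (ChIP-seq) was done on vegetative mycelium from 2 samples of the wild type and 2 of delta-asf1, a strain in which the gene for the histone chaperone ASF1 is deleted, and 2 input samples (chromatin without immunoprecipitation) were sequenced per strain. All groups shared growth at 27 °C, cross-linking with 1% formaldehyde for 15 min and a digestion of 105 min with 230 U/ml micrococcal nuclease. Growth lasted 2 days in the wild type and 3 days in delta-asf1, so genotype and growth time cannot be told apart in any difference below. Each strain is represented by 1 pooled list with no value per replicate, and the peak names of a list carry 1 library code, so it is not certain that a list stands for both samples. Replicate spread and read depth are unknown, and no difference between strains was tested. The SD values below are spreads over ends, and ends are not replicates of a strain. Mycelium holds many nuclei, so a region without a peak in part of them and a region with less acetylation in each of them cannot be told apart.

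ASF1 binds newly made histones H3 and H4 and hands them on for nucleosome assembly behind the replication fork and during transcription. In the yeast Saccharomyces cerevisiae it presents H3 to the acetyltransferase RTT109, which acetylates lysine 56, and the mark is found on freshly deposited nucleosomes. Chromosome ends of fungi are often rich in repeats, in recently duplicated genes and in species-specific genes, and in the related fungus Neurospora crassa much of the sequence near the ends carries the repressive mark H3K27me3. The peak list of a strain gives, for each region in which immunoprecipitated chromatin exceeded the local background, the borders, the mean fold over that background and a −log10 p-value and q-value. Fold spanned 1.157 to 1.580 in the wild-type list and 1.131 to 1.604 in the Δasf1 list, the narrowest peaks were 270 and 266 bp wide, and no gap between neighbouring peaks was shorter than 1084 and 1066 bp. The listed folds were thus low throughout, and shorter peaks or gaps could not be seen.

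The sequence within 100 kb of the ends was covered by peaks less than the interior in the wild type, and by a smaller margin in Δasf1. The 13 wild-type end windows were covered by peaks over 31.5% of their bases on average (SD 6.14, lowest 23%, median 29.9%, highest 42.8%), and the interior over 42.5%. In Δasf1 the ends had 33.8% (SD 4.67, lowest 26%, median 34.8%, highest 39.8%) and the interior 37.8%. In the wild type 12 of 13 ends lay below the interior, and in Δasf1 9 of 13. Interior tiles of 100 kb had medians of 43.1% and 38.2%, so many of them also lay below the interior value. Their share was not computed. The exception in the wild type was the right end of chromosome 1 at 42.8%, which was also the most covered end in Δasf1 at 39.8%.

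Coverage under 30% was used as a mark of a poorly covered window after the values had been seen. It applied to 7 of 13 ends in the wild type, beside 5.04% of the 377 interior tiles of 100 kb, and to 4 of 13 in Δasf1, beside 16.7% of the tiles. The lowest wild-type end was the left end of chromosome 3 (23%), followed by chromosome 1 left (24.5%) and chromosome 4 right (24.9%). In Δasf1 the left end of chromosome 6 was lowest (26%). The ends therefore reached down to the lower part of the interior range, in which the least covered tiles had 21.3% in the wild type and 21% in Δasf1. When only peaks with −log10 q of at least 3 were kept, the wild-type ends had 9.9% and the interior 7.95%, so the direction turned, whereas in Δasf1 the ends stayed lower (14.1% against 17.4%).

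**Figure D1:**
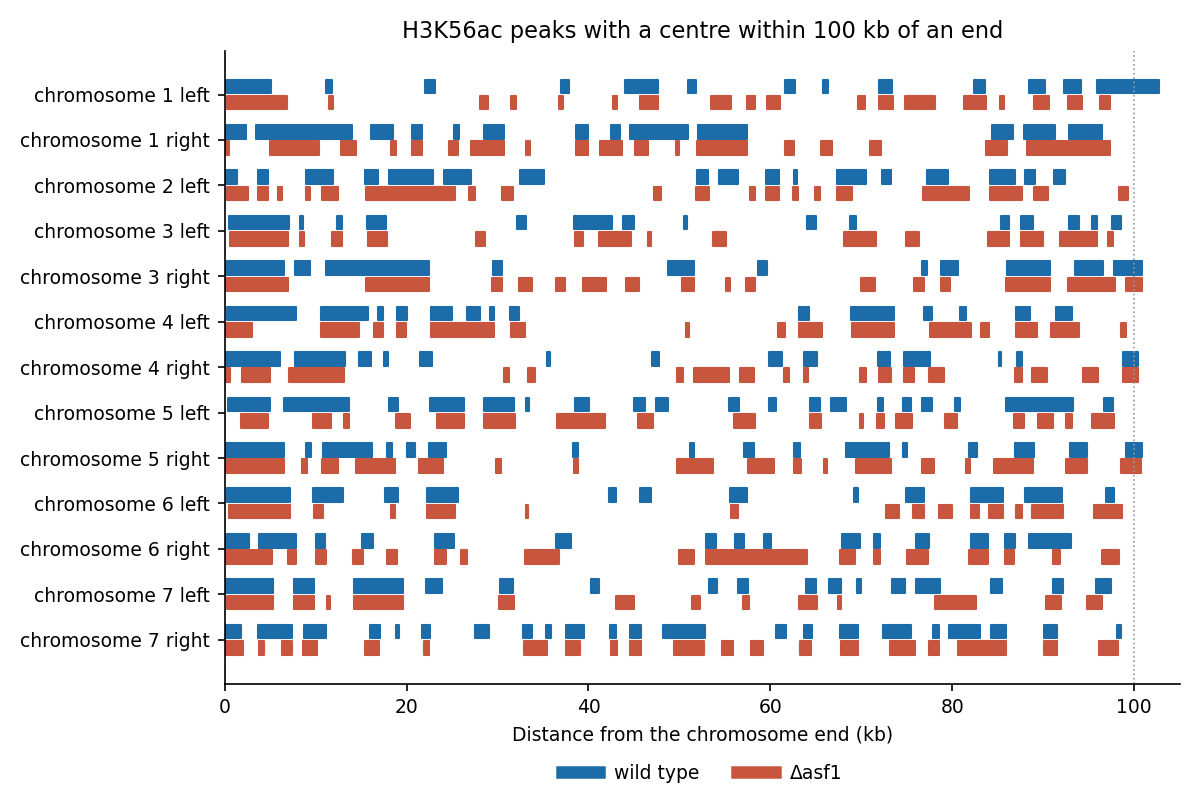
Peaks of the wild type (blue) and Δasf1 (red) along the 13 ends, one row per end, with the distance from the chromosome end in kb on the x axis and each bar drawn from border to border of a peak. All ends open with a peak in both strains within 1750 bp of the end, and stretches without a peak are longest between about 20 and 70 kb. Right ends are set by the last peak of either list, so a peak there is given by construction in at least 1 strain.

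The window of 100 kb was not uniform. From the end inwards, a densely covered outer part was followed by a sparsely covered one and then by a partial return, in both lists as deposited. In the wild type the outer 10 kb were covered at 70.4% (SD 14.3), the next 10 kb at 46.9% (SD 21.8), and the bin of 30 to 40 kb at 15.9% (SD 12.1). In Δasf1 the same bins had 58.1% (SD 15), 36.3% (SD 19.2) and 21.3% (SD 15.4). The lowest bin was 30 to 40 kb in the wild type and 40 to 50 kb in Δasf1 (17.9%). From there coverage came back unevenly, to 32.3% in the wild type and 41.2% in Δasf1 at 90 to 100 kb. Beyond the window the wild type stayed below its interior level, between 25.8% and 36.9% in each bin from 100 to 190 kb, and the bin of 190 to 200 kb was the first above it with 48.9%, followed by 38.8% at 200 to 210 kb.

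**Figure D2:**
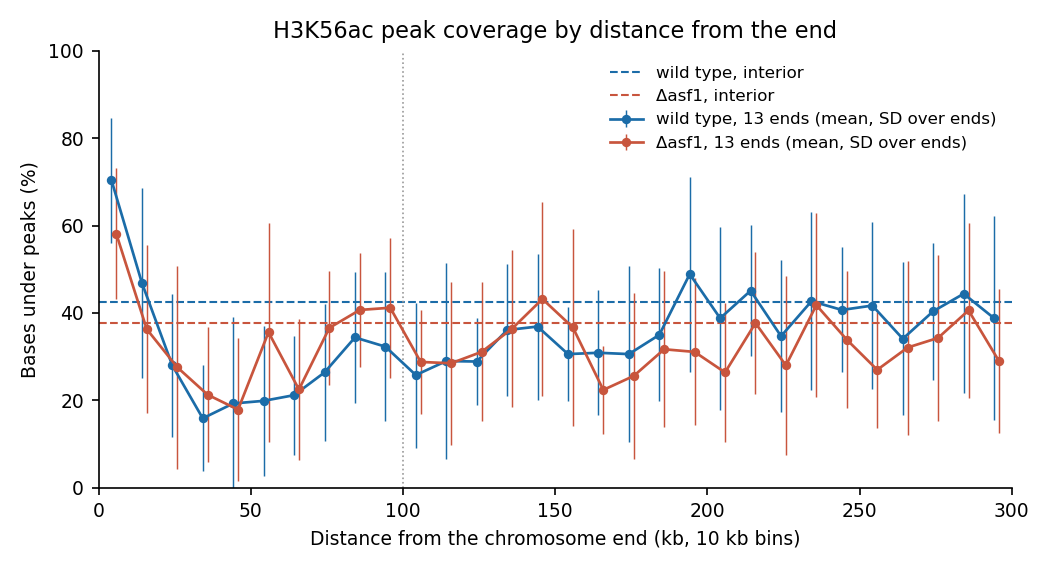
Percent of bases under peaks in 10 kb bins against the distance from the end in kb, as the mean over 13 ends with the SD over ends as bars, for the wild type (blue) and Δasf1 (red). Dashed lines mark the interior (42.5% and 37.8%) and the dotted line the 100 kb limit. Both strains start high (70.4% and 58.1%) and pass through a low at 30 to 50 kb.

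The higher coverage of the outer part was found at nearly every end taken alone, and the return at most of them. The zones of 0 to 20 kb, 20 to 70 kb and 70 to 100 kb were set after this profile had been seen, so the values are a description. The outer 20 kb were covered at 58.7% in the wild type (SD 15.4, from 28.5% at chromosome 1 left to 84.8% at chromosome 3 right) and at 47.2% in Δasf1 (SD 10.8, from 33.6% at chromosome 7 right to 65.6% at chromosome 5 right). The zone of 20 to 70 kb had 20.9% (SD 8.72) and 25% (SD 9.45). At 70 to 100 kb the values were 31.1% (SD 6.92) and 39.5% (SD 7.29). With −log10 q of at least 3 the return was absent in the wild type, with 3.62% in the middle zone and 2.71% at 70 to 100 kb. In Δasf1 that limit left 7.14% and 11.8%. The counts that follow are for the lists as deposited. The outer zone was covered more than the middle one at 13 of 13 wild-type ends and at 12 of 13 Δasf1 ends, with chromosome 5 left as the exception (34% and 34.8%). The zone of 70 to 100 kb was covered more than the middle one at 10 of 13 wild-type and 11 of 13 Δasf1 ends. The wild-type exceptions were chromosomes 1 right (35.9% and 31.5%), 2 left (32% and 29.7%) and 3 left (16.7% and 16.4%). The wild-type middle zone lay under the interior at 13 of 13 ends and the Δasf1 one at 11 of 13. No share of interior tiles was computed for this count.

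The outer part was dense from the first bases on. The 7 left ends start at position 1 of the assembled chromosome, which allows finer distances, whereas the right ends are set by the last peak itself and begin with a peak by construction. At the left ends the wild-type peaks covered 81.8% of the first 2 kb (SD 10.9), 90.9% from 2 to 5 kb (SD 23.3) and 43% from 5 to 10 kb (SD 22.5). In Δasf1 these were 73% (SD 27.4), 83.4% (SD 27.2) and 30.1% (SD 22). Coverage was thus highest at 2 to 5 kb and lower beyond it in both strains. Coverage of at least 50% of the outer 10 kb was found at 11 of 13 ends in the wild type, beside 35.2% of 3799 interior tiles of 10 kb, and at 9 of 13 in Δasf1, beside 27%. Over the left ends alone the outer 20 kb had 53.9% and 46%, and over the right ends 64.3% and 48.6%.

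The outermost peak of each end was found in both strains, and it was stronger than most peaks of the list. At all 13 ends the outermost peaks of the strains overlapped, and in both strains the fold of all 13 was above the interior median (1.248 in the wild type, 1.258 in Δasf1). Their fold ran from 1.270 to 1.440 in the wild type with a median of 1.310, and from 1.260 to 1.603 in Δasf1 with a median of 1.357. The fold was higher in the Δasf1 list at 12 of 13 ends, all but the left end of chromosome 2 (1.343 in the wild type and 1.260 in Δasf1). Because each list was scaled on its own, this order says nothing about the absolute level. The interior median was also higher in Δasf1, and no interior share was computed for this count. Median widths of the outermost peaks were 5150 and 5070 bp, against interior medians of 1644 and 1528 bp. Of the 13 outermost peaks, 8 in the wild type and 7 in Δasf1 were wider than 90% of interior peaks (4655 and 4407 bp).

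At 6 ends the outermost peak had both borders within 500 bp in the strains. At chromosome 6 left it spanned positions 290 to 7156 in the wild type (fold 1.344) and 475 to 7170 in Δasf1 (1.407). At chromosome 3 left it ran from 490 to 7119 (1.310) and from 547 to 7001 (1.357). At chromosome 7 left it ran from 203 to 5352 (1.285) and from 295 to 5364 (1.334). These 3 left ends thus carried a single wide peak with nearly the same outline in both strains. Chromosome 3 right (5707270 to 5713770, fold 1.333, and 5706826 to 5713810, fold 1.409), chromosome 5 right (4531413 to 4537985, 1.293, and 4531495 to 4537960, 1.333) and chromosome 7 right (4091525 to 4093313, 1.294, and 4091316 to 4093324, 1.323) were alike in this.

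At most other ends the outermost peak differed in its inner border. The largest step was at chromosome 4 right, where the wild-type peak spanned 5108391 to 5114431 (6041 bp, fold 1.302) and the Δasf1 peak only 5113819 to 5114455 (637 bp). This short Δasf1 peak had the highest fold of all Δasf1 members, 1.603, and a −log10 q of 16.6. Chromosome 1 right resembled it. The wild-type peak there, 9307730 to 9310075 (2346 bp), had the highest fold of all wild-type members (1.440, −log10 q 7.18), and the Δasf1 peak was reduced to the last 435 bp, 9309641 to 9310075, with a fold of 1.557. At chromosome 4 left the wild-type peak reached from 225 to 7830, the widest outermost peak of either list, and the Δasf1 peak from 196 to 3018 (1.307 and 1.387). In these 3 cases the part next to the end was under a peak in both strains. The inner part of the wild-type peak at chromosome 4 right was partly under a separate Δasf1 peak, 5109492 to 5112512 (3021 bp, fold 1.247), and at the other 2 ends it held no further Δasf1 peak.

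The left end of chromosome 5 differed at its outer border, since the Δasf1 peak began only at position 1751, whereas the wild-type peak began at 419. Both ended near 5 kb (4824 and 4956), with fold values of 1.331 and 1.270. At 3 of the remaining ends the Δasf1 peak was clearly the wider one. It ran from 283 to 6910 against 153 to 5147 at chromosome 1 left (fold 1.419 and 1.318), from 235 to 2602 against 188 to 1408 at chromosome 2 left, and from 4264377 to 4269537 against 4266925 to 4269576 at chromosome 6 right (1.330 and 1.320). No single direction thus described the borders at all ends, and the outermost peak was narrower in Δasf1 at 8 of 13. No interior share was computed for this count, and the median width of interior peaks was also lower in Δasf1 (1528 bp against 1644 bp).

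The outer peaks formed a stretch without long interruptions, which was measured up to the first gap of at least 5 kb, a length chosen after the lists had been seen. Its median was 24.4 kb in the wild type (5.1 to 52.8 kb) and 13.7 kb in Δasf1 (3 to 33.5 kb). It was shorter in Δasf1 at 8 ends and longer at 5. The largest difference was at chromosome 7 right, 52.8 kb in the wild type and 10.1 kb in Δasf1, followed by chromosome 4 left (32.4 to 3.0 kb) and chromosome 5 left (33.5 to 13.7 kb). Toward a longer stretch in Δasf1, the largest was at chromosome 6 right, 16.3 and 26.7 kb. The shortest wild-type stretch, 5.1 kb at chromosome 1 left, stood beside 11.9 kb in Δasf1. The value of an end rests on a single gap, so small shifts of a border can move it far. No interior value was computed for this distance. The longest gaps of interior 100 kb tiles were also longer in Δasf1 (median 10125 bp against 8191 bp in the wild type). A shorter stretch in Δasf1 is therefore not shown to be particular to the ends.

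**Figure D3:**
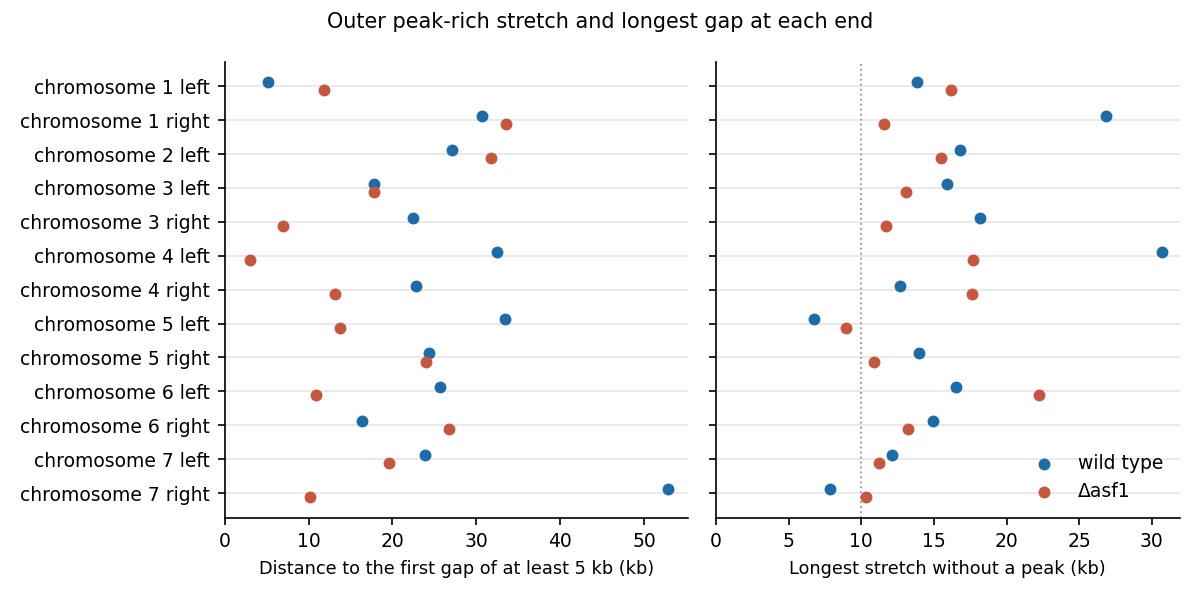
For each of the 13 ends, the distance in kb from the end to the first gap of at least 5 kb (left) and the longest stretch without a peak within 100 kb (right), in the wild type (blue) and Δasf1 (red). The dotted line marks 10 kb. The longest wild-type gap was at chromosome 4 left (30.7 kb) and the longest Δasf1 gap at chromosome 6 left (22.3 kb).

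Long stretches without a peak were found at nearly all ends, mostly in the middle zone. A gap of at least 10 kb was present at 11 of 13 ends in the wild type, beside 27.9% of interior tiles, and at 12 of 13 in Δasf1, beside 50.7%. The ends without one were chromosomes 5 left (longest gap 6734 bp) and 7 right (7856 bp) in the wild type and chromosome 5 left (8921 bp) in Δasf1. In all, the wild type had 21 such gaps, of which 18 started 20 to 70 kb from the end, and Δasf1 had 16, of which 12 did. That zone was set where coverage of the same lists had been seen to be low. The position of the gaps is therefore a description and no separate result. Longest gaps had a median of 14922 bp in the wild type and 13066 bp in Δasf1, against medians over interior tiles of 8191 and 10125 bp. The zone of 30 to 70 kb was covered under 25% at 9 of 13 ends in the wild type, beside 6.45% of 946 interior tiles of 40 kb, and at 9 of 13 in Δasf1, beside 12.6%. This zone and this limit were also set after the lists had been seen.

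The longest gap of all was at the left end of chromosome 4, from 32394 to 63118 in the wild type. The longest gap inside an interior wild-type tile of 100 kb was 23838 bp, but gaps that cross a tile border are cut in that value. The gap at this end was 30.7 kb long and held 8 annotated protein-coding genes. In Δasf1 3 peaks covered 5.51% of it, and the outer part, 33024 to 50728, was free of peaks there too. The 4 genes in that common gap, SMAC4_13588 to SMAC4_13591, were at 0% in both strains. Of the 4 further genes, SMAC4_08625 was covered at 22% and SMAC4_13592 at 36.2% in Δasf1. This end was thus sparse in both strains at the same place.

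The second wild-type gap was at the right end of chromosome 1 (9225768 to 9252644, 26.9 kb, 57.4 to 84.3 kb from the end), with 4 genes and only 19.6% of its bases in genes. Δasf1 peaks covered 14.5% of it, among them 60% of SMAC4_13165 and 37.2% of SMAC4_09089. The next gap, 5665094 to 5683272 at chromosome 3 right, had the highest share of bases in genes among the 5 longest, 76%. Peaks of Δasf1 covered 34.7% of this gap and 5 of its 6 genes, from 14.3% of SMAC4_07267 to 79.4% of SMAC4_07266. Another was at the same end (5637134 to 5654213), with SMAC4_07275 covered at 80.3% and SMAC4_07274 at 31% in Δasf1. The last of the 5 was at chromosome 2 left (35128 to 51942), where SMAC4_06938 was covered at 87.3% in Δasf1 and 3 further genes at 0%. All 5 gaps held Δasf1 peaks, over between 4.98% and 34.7% of their length. No interior share was computed for gaps of this length.

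Of the 5 longest Δasf1 gaps, 4 held wild-type peaks and 2 lay at chromosome 6 left, 33386 to 55638 (22.3 kb) and 56432 to 72760 (16.3 kb). Between them stood 1 Δasf1 peak. The same place in the wild type carried the peak with the second highest fold among wild-type members, 55557 to 57386 (1.393, −log10 q 6.82). In the wider gap SMAC4_04209 was covered at 51.9% in the wild type, and the 5 other genes were at 0% in both strains. The Δasf1 coverage of 2.71% at 30 to 70 kb made this end the emptiest of all in that zone, beside 10.9% in the wild type. The remaining 3 were the common gap of chromosome 4 left, 5083732 to 5101330 at chromosome 4 right (18.4% covered in the wild type) and 11871 to 28066 at chromosome 1 left (6.97% covered).

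The difference between the strains changed with the distance from the end. Coverage of the whole 100 kb was higher in Δasf1 at 8 of 13 ends, with a mean difference of 2.29 percentage points (SD 5.32 over ends). In the interior 19.6% of 100 kb tiles were covered more in Δasf1, and the mean difference over tiles was -4.77 points. The outer 20 kb were covered more in Δasf1 at 6 of 13 ends, beside 35.2% of interior tiles of 20 kb. The zone of 20 to 70 kb was covered more in Δasf1 at 9 of 13, beside 27.6% of tiles of 50 kb, and the zone of 70 to 100 kb at 10 of 13, beside 31.8% of tiles of 30 kb. When the window was cut to 50 kb the mean difference turned to -3.89 percentage points.

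In the outermost 10 kb Δasf1 was covered less at 11 of 13 ends, by -12.3 percentage points on average. In the interior 61% of 10 kb tiles were covered less in Δasf1, and the mean difference was -4.75 points. The largest differences were at chromosome 4 left (from 76.1% to 28.2%), chromosome 5 left (79.5% to 33.1%) and chromosome 1 right (88.4% to 54.8%). At 4 ends the difference was under 3 percentage points, as at chromosome 7 left (74% and 73.5%) and chromosome 5 right (71.7% and 70.8%). Chromosomes 1 left (50% and 66.3%) and 2 left (34.6% and 43.9%) went the other way, and these were the wild-type ends with the lowest outer coverage. The mean thus rested on a part of the ends. With −log10 q of at least 3 the outer 20 kb had 36.4% in the wild type and 35% in Δasf1, while that limit turned the interior to 7.95% and 17.4%. It kept 18.9% of wild-type and 37.9% of Δasf1 peaks, so these values do not show whether the strains were alike in the outer zone.

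**Figure D4:**
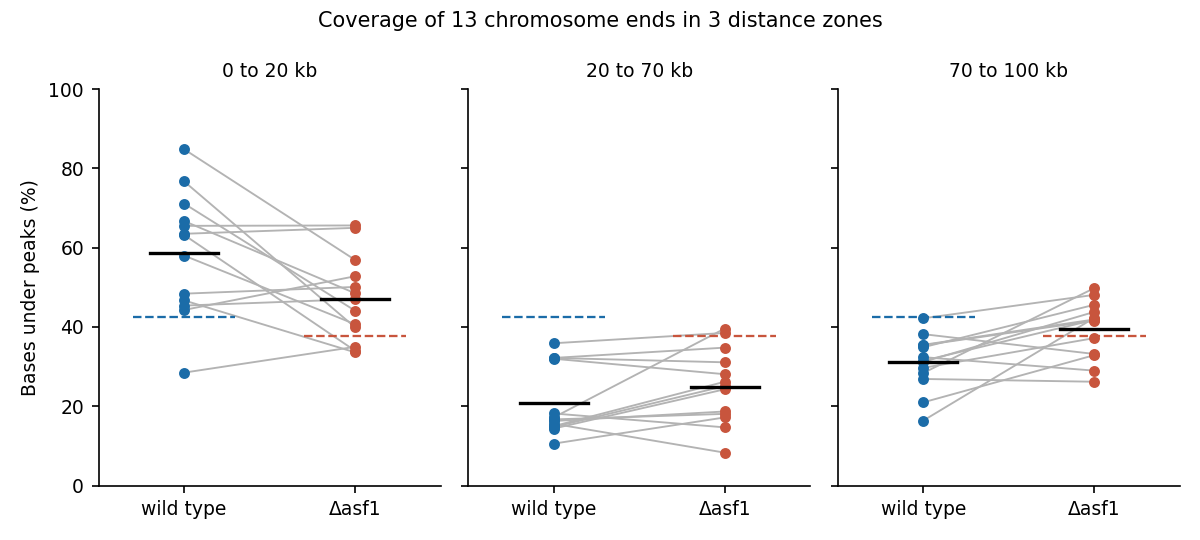
Percent of bases under peaks at each of the 13 ends (points, joined across strains) in the zones of 0 to 20 kb, 20 to 70 kb and 70 to 100 kb, with the mean as a black line and the interior of the strain as a dashed line. The means are 58.7% and 47.2%, 20.9% and 25%, and 31.1% and 39.5% in the wild type and Δasf1.

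In each bin from 50 to 100 kb the mean was higher in Δasf1, by least at 60 to 70 kb (21.2% and 22.5%, 6 of 13 ends higher). The bin of 50 to 60 kb had 19.9% in the wild type and 35.6% in Δasf1 with 9 of 13 ends higher in Δasf1, and the bin of 90 to 100 kb had 32.3% and 41.2% with 11 of 13 higher, beside 38.6% of interior tiles of 10 kb. Single ends stood out. At chromosome 3 left the zone of 70 to 100 kb went from 16.4% to 42.3%, and at chromosome 4 left from 28.4% to 49.8%. At chromosome 6 right the zone of 20 to 70 kb went from 17.2% to 39.6%, which contained the widest Δasf1 member, 4205604 to 4216613 (11010 bp, fold 1.230). The higher mean in Δasf1 did not stop at the window. From 100 to 160 kb it was found in every bin but 110 to 120 kb (29% and 28.5%), by 0.32 to 6.36 percentage points. In each bin from 160 to 210 kb the wild type had the higher mean, as in the interior, with 48.9% in the wild type and 31.1% in Δasf1 at 190 to 200 kb.

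The share of peaks with a partner in the other strain was lowest in the middle zone in both lists. A peak was called shared when a peak of the other list overlapped it by at least 1 bp. At the 13 ends 158 of 197 wild-type peaks (80.2%) and 158 of 218 Δasf1 peaks (72.5%) were shared, beside 83.2% and 89.1% of interior peaks. In the outer 20 kb 91.3% and 93.9% were shared. In the zone of 20 to 70 kb 32.6% of wild-type peaks and 42.6% of Δasf1 peaks had no partner, and at 70 to 100 kb 10.8% and 22.7%. In the interior these shares were 16.8% and 10.9%. An overlap of 1 bp also depends on peak width and on how much the other list covers. Both were lowest in the middle zone, and their part in these shares was not tested.

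By bases, 46.9% of what was covered in either strain at the ends was covered in both, beside 53.2% in the interior. The share was 63.1% in the outer 20 kb, 36.4% at 20 to 70 kb and 44.5% at 70 to 100 kb, and it too depends on coverage. Neither list covered 66.4% of the bases of the middle zone, beside 47.6% of the interior. When at least 50% of both peaks had to overlap, 87 peaks of each list were shared at the ends, which is 44.2% of the wild-type and 39.9% of the Δasf1 peaks, beside 44.7% and 47% in the interior.

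In the wild type the median width of peaks was higher in the outer 20 kb than in the other zones. In Δasf1 the median was not above that at 70 to 100 kb, but the upper quartile was. In the outer 20 kb the median width was 2395 bp in the wild type (quartiles 1081 and 5261 bp) and 1574 bp in Δasf1 (922 and 4112 bp). At 20 to 70 kb the medians were 1130 and 1234 bp, and at 70 to 100 kb 1500 and 1628 bp, beside interior medians of 1644 and 1528 bp. The Δasf1 upper quartile was 2413 bp at 70 to 100 kb and 2746 bp in the interior. Over the whole window the medians were 1334 and 1470 bp. Peak number varied less, with 17.7 and 18.8 peaks per 100 kb in the outer zone, 13.2 and 14.5 in the middle one, 16.7 and 19.2 in the inner one and 19 and 18.1 in the interior. The wild-type difference between outer zone and interior was therefore one of width, and in the middle zone peaks were both fewer and narrower.

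The widest wild-type members were at chromosome 3 right (5691311 to 5702645, 11335 bp) and chromosome 1 right (9296030 to 9306567, 10538 bp, 1.286). In Δasf1 the second widest was at chromosome 2 left (15575 to 25379, 9805 bp, 1.275). It spanned 3 separate wild-type peaks, and the outer 20 kb of this end were covered at 44.3% in the wild type and 52.8% in Δasf1. The next was at chromosome 1 right (9212734 to 9221849, 9116 bp, 1.269). Wide peaks were thus not confined to the outermost position. The wild-type peak 85904 to 93236 at chromosome 5 left (7333 bp, 1.271) also lay near the inner limit.

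Fold enrichment followed the same course with small steps. Median fold was 1.255 in both strains in the outer 20 kb, 1.218 and 1.229 at 20 to 70 kb, 1.234 and 1.244 at 70 to 100 kb, and 1.248 and 1.258 in the interior. The interquartile ranges overlapped in all zones, as in the outer zone (1.217 to 1.294 and 1.220 to 1.332) and in the interior (1.222 to 1.276 and 1.223 to 1.296). The upper part of the range was longer in Δasf1. The highest folds there after the outermost peaks of chromosomes 4 right and 1 right belonged to short peaks, 13124 to 13721 at chromosome 5 left (598 bp, fold 1.465, −log10 q 10.6), 18295 to 18687 at chromosome 6 left (393 bp, 1.449) and 9260138 to 9260460 at chromosome 1 right (323 bp, 1.448). In the wild type the peak of 404 bp from 8269 to 8672 at chromosome 3 left (1.363) and the peak from 86956 to 88584 at chromosome 4 left (1.351) came after those of chromosomes 1 right and 6 left. All of these overlapped a peak of the other strain.

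The background depth at which the listed fold would have its listed p-value was calculated for each peak and divided by the median of the list, so that 1 is the usual depth. It was higher near the ends, with medians of 1.15 in the wild type and 1.13 in Δasf1 in the outer 20 kb, 1.1 and 1.09 at 20 to 70 kb, and 1.09 and 1.06 at 70 to 100 kb, beside 0.998 in the interior of both. The 5th and 95th percentiles of interior peaks were 0.937 and 1.1 in the wild type and 0.93 and 1.1 in Δasf1. This depth is solved back from values averaged over a peak and was not measured, since reads and inputs were not analysed here. A given fold reaches a smaller p-value at a higher depth, and the part of this in the coverage of the ends was not tested.

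Protein-coding genes near the ends were at least as dense as elsewhere, and a smaller share of them had a peak. The gene table placed 387 protein-coding genes within 100 kb of the 13 ends, 29.8 per 100 kb, beside 26.1 in the interior. Genes filled 39.3% of the bases in the outer 20 kb, 50.9% at 20 to 70 kb and 61.5% at 70 to 100 kb, beside 58.3% in the interior. The wild type had a peak on 215 of the 387 genes (55.6%), beside 81.5% of 9914 interior genes, and Δasf1 on 251 (64.9%), beside 77.1%. The share was lowest in the middle zone, where 40.7% and 53.8% of 199 genes had a peak. In the outer 20 kb 76% and 70.7% of 75 genes did, and at 70 to 100 kb 68.1% and 80.5% of 113. Of these shares only the Δasf1 one at 70 to 100 kb was not below the interior of its strain. They count any overlap of a gene with a peak. Genes covered at 50% or more made up 61.3% and 58.7% in the outer 20 kb, above the interior with 54.3% and 51.5%. At 20 to 70 kb they made up 23.6% and 33.2%, and at 70 to 100 kb 32.7% and 54.9%. Neither list had a peak on 98 genes at the ends (25.3%), beside 11.7% in the interior.

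Many genes of the outer zone carry no tag of the older annotation. Of the 75 genes in the outer 20 kb, 58 (77.3%) had none, beside 30.2% at 20 to 70 kb, 7.08% at 70 to 100 kb and 6.02% in the interior. Their median length was 1107 bp, beside 1948 bp in the interior. Transfer RNA genes were present 11 times at the ends (0.846 per 100 kb) and 433 times in the interior (1.14 per 100 kb). A missing tag does not show that a gene had no older counterpart, since SMAC4_04514 and SMAC4_09263 have none while the tags with their numbers are given to SMAC4_13406 and SMAC4_13577, genes of the same lengths at other ends.

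Inside genes and between genes the strains differed in unlike ways. In the outer 20 kb the coverage inside genes was similar (58.2% in the wild type and 55.4% in Δasf1), whereas between genes it was 59% and 41.9%. At 20 to 70 kb it was 23.3% and 34.6% inside genes and 18.4% and 15% between them, and at 70 to 100 kb 37.4% and 53.9% inside and 20.9% and 16.5% between. In the interior the values were 52.3% and 51% inside genes and 28.7% and 19.3% between genes. The lower coverage between genes in Δasf1 thus held in every zone and in the interior. The higher coverage inside genes was found from 20 to 100 kb and not in the outer zone or the interior.

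**Figure D5:**
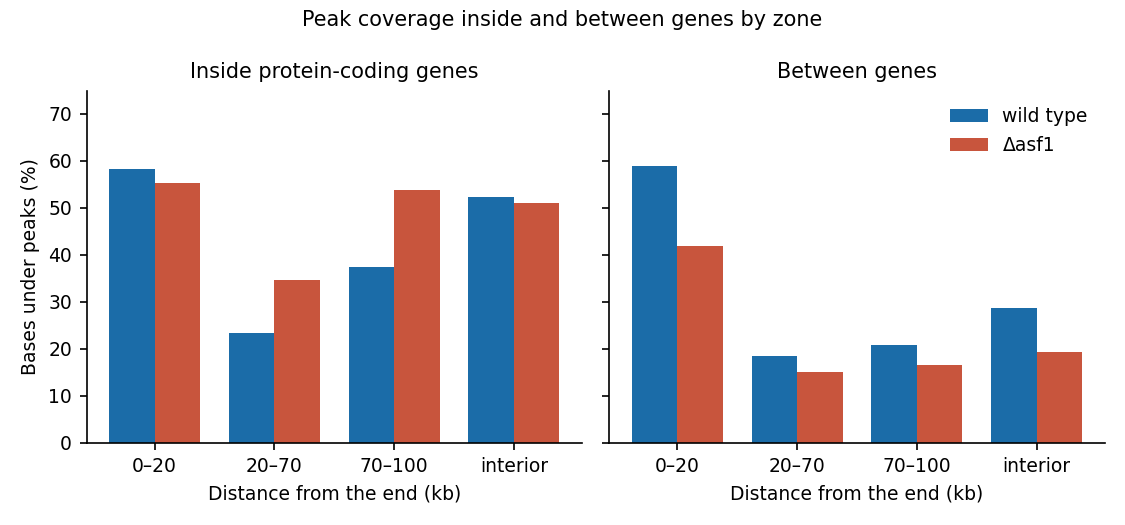
Percent of bases under peaks inside protein-coding genes (left) and between them (right), pooled over 13 ends for 3 zones and for the interior, in the wild type (blue) and Δasf1 (red). Inside genes Δasf1 is higher at 20 to 70 kb (34.6% against 23.3%) and at 70 to 100 kb (53.9% against 37.4%). Between genes it is lower in all 4 groups.

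More genes of the ends had a peak in the Δasf1 list alone than in the wild-type list alone. These were 74 of 387 genes (19.1%) for Δasf1, beside 6.82% of interior genes, and 38 (9.82%) for the wild type, beside 11.1%. The zone of 20 to 70 kb held 49 of the former (24.6% of its genes) and 23 of the latter (11.6%), the zone of 70 to 100 kb 22 and 8, and the outer 20 kb 3 and 7. At 11 of 13 ends the Δasf1 number was the higher one, and chromosomes 5 left (3 against 4) and 7 left (3 against 7) were the exceptions. At 100 to 200 kb the numbers were 44 and 51, and at 200 to 300 kb 36 and 57. At −log10 q of at least 3 the ends kept this order (55 and 25 genes), but the interior turned from 676 and 1103 to 2518 and 700, since more Δasf1 peaks (37.9%) than wild-type peaks (18.9%) passed that limit. The contrast between ends and interior therefore holds for the lists as deposited and not for their stronger peaks.

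The 10 genes with the largest difference toward more coverage in Δasf1 were spread over 7 ends. SMAC4_07856 (53.5 kb from the right end of chromosome 4), SMAC4_07901 (70.8 kb from the left end of chromosome 3) and SMAC4_14035 (34.1 kb, chromosome 6 right) went from 0% to 100%. SMAC4_06927 (89.8 kb, chromosome 2 left) went from 3.41% to 100%, SMAC4_09082 (27.6 kb, chromosome 1 right) from 0% to 94.6%, SMAC4_08918 (57.5 kb, chromosome 5 left) from 0% to 91.1% and SMAC4_12952 (43.9 kb, chromosome 7 left) from 0% to 89.5%. Chromosome 3 left had 2 more, SMAC4_07893 (15.7% to 100%) and SMAC4_07899 (0% to 81.7%), so 3 of the 10 lay between 70 and 90 kb of this end. The tenth, SMAC4_06938 of chromosome 2 left, was named above. None of the 10 lay in the outer 20 kb, which held 75 of the 387 genes of the ends.

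Of the 10 genes with the largest difference toward the wild type, 4 lay in the outer 20 kb, beside 75 of all 387 genes of the ends. Counts over 10 genes do not show that the 2 directions differed in position. SMAC4_13171 (12 kb, chromosome 1 right), SMAC4_13574 (13.5 kb, chromosome 3 right), SMAC4_13580 (6.5 kb, chromosome 4 left) and SMAC4_09871 (7.3 kb, chromosome 5 left) were covered fully in the wild type and not in Δasf1. These are ends at which the outer coverage was lower in Δasf1, and the bases of these genes are part of that coverage. The same values of 100% and 0% were found for SMAC4_06936 (55.3 kb) and SMAC4_13180 (34.2 kb) at chromosome 2 left, SMAC4_07660 (61.0 kb, chromosome 7 right), SMAC4_08916 (67.0 kb, chromosome 5 left) and SMAC4_14042 (22.6 kb, chromosome 7 left), and SMAC4_09088 (48.7 kb, chromosome 1 right) went from 100% to 2.27%. The gene table gives no product for any of them, so no function can be named.

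At all 13 ends the outermost gene itself was overlapped by a peak in both strains, beside 6972 of 9914 interior genes. It was covered fully in both at chromosomes 1 left (SMAC4_12987, 1.6 kb from the end), 3 left (SMAC4_13406), 3 right (SMAC4_13577), 5 left (SMAC4_13717), 5 right (SMAC4_04514), 6 left (SMAC4_09263) and 7 left (SMAC4_14039). The lowest values were those of SMAC4_13172 at chromosome 1 right, 69.2% (wild type) and 12.7% (Δasf1), and of SMAC4_13173 at chromosome 2 left, 37.4% and 72.5%. The first gene without a peak in either strain lay 2.8 kb from the end at chromosome 7 right (SMAC4_14172) and 36.1 kb at chromosome 2 left (SMAC4_07623). Most of these outermost genes lay in or across the outermost peak. At chromosomes 1 right and 6 right the gene lay further in, under other peaks. The same held at chromosome 4 right in Δasf1, where the gene was centred at 4.2 kb and the outermost peak was 637 bp wide.

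Several ends carry gene models of equal length in the same order, so reads of near-identical copies could be shared between them, which was not tested. In the outer 25 kb 32 of 88 genes had a length that recurred at another end, and 11 of 13 ends held such a gene. SMAC4_13406, SMAC4_04514 and SMAC4_14039, the outermost genes of chromosomes 3 left, 5 right and 7 left, were all 1988 bp long. Chromosome 3 right and chromosome 6 left shared 3 genes of 1358, 1266 and 1107 bp at distances from the end that differed by 170 to 171 bp. Chromosomes 4 left and 6 right shared genes of 423 and 270 bp at equal spacing, and chromosomes 3 right and 4 right genes of 1880 and 1360 bp. Peaks on these genes may therefore not be independent of each other, and their values are uncertain.

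Peaks on such genes were alike in part. The outermost genes of chromosomes 3 right and 6 left (SMAC4_13577 and SMAC4_09263) were covered fully in all 4 cases, and their next partners SMAC4_13575 and SMAC4_13877 were covered at 8.21% and 30.8% in the wild type and at 30.7% and 31.9% in Δasf1. In the pair SMAC4_13574 and SMAC4_13878, however, the first was covered at 100% in the wild type and the second at 0%, and both were at 0% in Δasf1. Equal gene models thus did not always carry equal peaks. Without the 5 ends of these pairs, the outer 20 kb of the other 8 had 54.6% in the wild type and 47% in Δasf1, the middle zone 24.8% and 26%, and the inner zone 30.6% and 38.5%.

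The end of chromosome 2 with the ribosomal RNA repeats stood apart by its depth. Of the 89925 bp above position 6300000, peaks covered 87.1% in the wild type and 75.8% in Δasf1. The wild type had 4 peaks, of which the outer 3 (6335649 to 6389925, 6327112 to 6334380 and 6310142 to 6325983) had depths of 11.6, 11.9 and 13.2 times the usual one and folds of 1.365, 1.421 and 1.369. The innermost, 6300218 to 6301120, had a depth of 0.925, near the usual one. The outermost, 54277 bp wide, was the widest peak of the list. All 10 Δasf1 peaks had depths between 17 and 21.5, widths from 672 to 27825 bp and folds from 1.148 to 1.527. The highest −log10 q, 78.7 and 195.4, belonged to peaks at high depth with folds of 1.421 and 1.527. The 90th percentiles of the fold of interior peaks were 1.307 in the wild type and 1.334 in Δasf1. The single wild-type peak of 54277 bp faced 4 separate Δasf1 peaks.

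The peaks nearest to the limit of 100 kb are given on both sides. The wild-type members nearest to it were 5014013 to 5015718 at chromosome 4 right (99.6 kb, fold 1.237) and 4437157 to 4438942 at chromosome 5 right (99.9 kb, 1.296), and the nearest peaks outside were 99835 to 101054 at chromosome 3 left (100.4 kb, 1.205) and 100267 to 101101 at chromosome 4 left (100.7 kb, 1.204). In Δasf1 4437195 to 4439450 at chromosome 5 right (99.7 kb, 1.245) and 5612955 to 5614680 at chromosome 3 right (at the limit, 1.247) were inside, and 99775 to 102193 at chromosome 3 left (1.280) and 100271 to 101715 at chromosome 4 left (1.228), both at 101.0 kb, were outside. Mean coverage across the limit went from 32.3% at 90 to 100 kb to 25.8% at 100 to 110 kb in the wild type, and from 41.2% to 28.8% in Δasf1.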

How the data were processed

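Peaks of the deposited pooled list of each strain were used as given, with the last position of any peak standing for the right end of a chromosome. The submitters' processing notes name fastp, Bowtie2 and MACS2 without versions, and the genome build is Sm_v04_wtN. In the broad-peak format of the deposited lists, the fold enrichment is a linear ratio over local background, and −log10 of the p-value and −log10 of the q-value are means over a peak as the authors' caller gave them. The authors' 2 lists of strain-specific peaks served only for 1 alternative, and the reads and inputs were not analysed here.

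Coverage is the percent of bases under peaks. Interior means all sequence more than 100 kb from an end, cut into non-overlapping tiles. For the implied depth, 1 was added to the pileup and to the background, their ratio was set to the fold, and the Poisson background with the listed p-value was solved for. The solution was tested on simulated data, which does not show the true depth. Python 3.11.15, numpy 2.4.6, pandas 2.3.3 and scipy 1.17.1 were used.

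Genes came from a RefSeq table of 10309 protein-coding genes, assembly ASM3387043v1. Its build is not named as that of the lists. Of the covered bases 71.1% (wild type) and 78.1% (Δasf1) lay in genes, and at most 59.5% and 59.6% with genes shifted by 5000 or 20000 bp, so genes were set against peaks by the coordinates of the table, none of which are printed. Counts by product words were not run because the table holds no products, and no sequence is printed because no genome was used here.

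Named were, in each strain, the outermost peak of each end, the 5 peaks with the highest fold, width or −log10 q, the 5 longest gaps, the 2 peaks on either side of the limit, the peaks of the ribosomal RNA end and, of the genes, the outermost ones, the 10 with the largest change in each direction and those in the longest gaps. Ends, rule and lists were chosen with earlier results of these data known, and the zones and thresholds after the peaks had been seen.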

Additional observations from a re-analysis of the deposited data

How the results depend on the processing

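Coverage of the ends, its distance to the interior, the difference between strains, width, fold, long gaps and bases covered in both were computed again with windows of 50 and 200 kb, with −log10 q of at least 3, with equal numbers of peaks per strain, with peaks wholly inside the window, with the last annotated position as the end, with 14 ends, without the part of chromosome 2 known from earlier results to be duplicated in Δasf1 and with each end left out. No paired analysis was possible because each strain has 1 pooled list and no test was run, and no replicate could be left out. A value counted as moved when it changed by more than 1 SD over ends (ends are not replicates), or a count by over 1.5 times. This limit is wide, since it is the spread of single ends. Of 90 values, the ends left out in turn apart, 81 stayed within it. Many of these could hardly move, so the count is no measure of robustness. The last annotated position lay beyond the last peak only at chromosome 2, whose right end was kept apart, and at chromosome 7. Equal numbers of peaks left the shorter Δasf1 list unchanged. The outermost peaks, the outer stretches, widths, folds and sharing by zone, and coverage inside and between genes were not computed again. A window of 50 kb turned the difference between strains in coverage of the ends to -3.89 percentage points. Requiring −log10 q of at least 3 turned the wild-type ends minus the interior to 1.94 percentage points. It also gave coverage of the ends of 9.9% and 14.1%, median folds of 1.293 and 1.3, and 31% of covered bases in both strains. Reciprocal overlap of 50% left 87 shared peaks in the wild type and 87 in Δasf1, from 158 each. With each end left out in turn, coverage of the ends stayed within 30.5% to 32.2% and 33.3% to 34.4%, the distance to the interior within -12 to -10.3 and -4.49 to -3.34, the difference between strains within 1.61 to 2.98, width within 1302 to 1429 bp and 1417 to 1483 bp, fold within 1.230 to 1.234 and 1.234 to 1.243, ends with a long gap within 10 to 11 and 11 to 12, and bases covered in both within 46.1% to 47.8%. For coverage by zone and genes with a peak in 1 strain, alternatives were chosen after seeing the data, and the values that moved came from −log10 q of at least 3, beside 1246 interior genes under Δasf1 peaks alone when 50% of a gene had to be covered.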

Other observations

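The 2 peaks of each list at the right end of chromosome 2 below position 6300000 belong to no comparison above. In the wild type they were 6293096 to 6294568 (1473 bp, fold 1.214) and 6297339 to 6298035 (697 bp, 1.239), and in Δasf1 6291869 to 6294176 (2308 bp, 1.252) and 6296607 to 6297444 (838 bp, 1.178). Their implied depths were 0.961, 0.945, 0.948 and 0.912, that is, near the usual depth of the lists, and each overlapped a peak of the other strain.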
